A study of Mus musculus with 10 samples.

Results

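The set described here is 38 genes of G2 phase and mitosis, given as a list of names and matched by gene symbol. The matching used no measured value, although the list was drawn up with earlier results of these data known. All 38 were found, each as 1 of the 31053 gene identifiers of the mouse lung libraries, and all 38 passed the filter on low counts. They were followed in 10 droplet-based single-cell RNA libraries of epithelial cells sorted from the distal lung of adult mice by EpCAM and by the fluorescent colour of their lineage label. Mice of the genotype Sftpc-CreERT2; R26R-Confetti served as controls, in which RFP+ and YFP+ cells are both wildtype, and there was 1 library of each colour. In the lungs of Sftpc-CreERT2; Red2Kras mice the red label marks mutant cells (RFP+) whereas YFP+ cells next to them are wildtype, and there were 2 libraries of each colour at 4 days and 2 of each at 2 weeks after induction. Cre was driven by the promoter of the surfactant gene Sftpc in every group, so that label begins in alveolar type 2 (AT2) cells, and all mice received 3 tamoxifen doses of 0.2 mg per gram body weight according to the methods of the study. Lungs of several mice were pooled in each library. The methods list 1 Confetti sample and 2 Red2Kras samples for each time point, with both colours isolated. The 2 Confetti libraries may therefore be the colours of 1 pool of lungs and not separate controls. A time point is missing from the labels of the Confetti libraries. The methods place them at 2 weeks, so that comparisons of 4 days groups with them mix time and genotype.

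A cell that has copied its DNA builds up the kinase Cdk1 and its B-type cyclins during G2, and their activity starts mitosis. Chromosomes are then condensed, attached to the spindle through kinetochores under the control of the spindle checkpoint, and separated once the anaphase-promoting complex has marked cyclin B and securin for destruction, after which the cell divides in cytokinesis. AT2 cells are the stem cells of the alveolus and divide rarely in the resting adult lung. Transcripts of these genes therefore mark cells on their way to division.

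Many genes of this set are known targets of the MuvB protein complexes, which hold them silent in resting cells through a cell cycle homology region (CHR), commonly TTTGAA, and switch them on in G2, often with NF-Y bound at CCAAT boxes upstream. The promoter windows of the set were therefore read from RefSeq (GRCm38.p6), which gave 300 bases, 250 before and 50 from the annotated start, for 33 of the 38 genes and for 27025 genes in all. Ccna2, Aurkb, Tpx2, Dlgap5 and Smc4 had no window. TTTGAA on either strand was present in 23 of 33 windows (69.7%) and in 18.1% of all windows. Between 60 bases before the start and the end of the window it was present in 21 of the 33 and in 5.46% of all. CCAAT on either strand was present in 26 of 33 windows (78.8%) against 37.9% of all, and at least 2 copies were present in 21 (63.6%) against 12.2%. Both motifs stood together in 20 of 33 (60.6%) and in 7.12% of all windows. By contrast TATAAA, the core of the TATA box, was found in 1 of 33 windows (3.03%) against 14.2% of all, and CACGTG, an E-box, in 2 (6.06%) against 7.24%. No motif contains another. Such matches describe the sequence and do not show that a factor binds there.

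The 6 windows below run from 120 bases before to 30 bases after the start, 5′ to 3′ on the strand of the gene, with capitals marking TTTGAA (or its reverse complement TTCAAA) and the CCAAT box (or its reverse complement ATTGG). They show 3 of the arrangements in the set: both motifs (Cdk1, Ube2c, Cdc20, Top2a), CCAAT alone (Ccnb1) and neither (Birc5). In Anln, Kif2c and Ndc80, not shown, TTTGAA stood without CCAAT. Cdk1 is at chr10:69352883-69353032 on the minus strand, Ccnb1 at chr13:100786457-100786606 on the minus strand, Ube2c at chr2:164769809-164769958 on the plus strand, Birc5 at chr11:117849117-117849266 on the plus strand, Cdc20 at chr4:118437314-118437463 on the minus strand and Top2a at chr11:99024160-99024309 on the minus strand of GRCm38.p6.
Cdk1: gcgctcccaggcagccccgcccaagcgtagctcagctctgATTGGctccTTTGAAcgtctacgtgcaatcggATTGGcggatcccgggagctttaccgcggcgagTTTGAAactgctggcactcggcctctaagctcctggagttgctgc
Ccnb1: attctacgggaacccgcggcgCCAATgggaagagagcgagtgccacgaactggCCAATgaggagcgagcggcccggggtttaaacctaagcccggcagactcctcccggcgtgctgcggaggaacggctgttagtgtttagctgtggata
Ube2c: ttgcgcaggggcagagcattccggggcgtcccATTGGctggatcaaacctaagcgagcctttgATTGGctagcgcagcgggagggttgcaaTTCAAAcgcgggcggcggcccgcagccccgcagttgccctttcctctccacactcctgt
Birc5: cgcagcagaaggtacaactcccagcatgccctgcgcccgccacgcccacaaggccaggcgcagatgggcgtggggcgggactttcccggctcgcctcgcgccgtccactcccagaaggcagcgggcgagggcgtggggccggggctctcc
Cdc20: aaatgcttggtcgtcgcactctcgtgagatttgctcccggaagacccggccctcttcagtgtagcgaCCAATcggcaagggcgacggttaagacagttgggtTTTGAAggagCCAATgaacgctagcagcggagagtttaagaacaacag
Top2a: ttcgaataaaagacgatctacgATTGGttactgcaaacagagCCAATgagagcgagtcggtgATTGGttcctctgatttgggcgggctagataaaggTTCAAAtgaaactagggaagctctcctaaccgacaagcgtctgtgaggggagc
In Cdk1 the matches to TTTGAA began 71 and 15 bases before the start, in Ube2c 29, in Cdc20 18 and in Top2a 23 bases before it. Across the set the match nearest to the start lay at a median of 4 bases after it (range 103 before to 39 after), and 52 of 72 CCAAT matches lay within the 150 bases before it. The 10 windows without TTTGAA were those of Birc5, Bub1, Ccnb1, Cenpe, Cks2, Gtse1, Nek2, Nuf2, Nusap1 and Tacc3, so that the lack of these letters was shared by members of several roles.

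**Figure D1:**
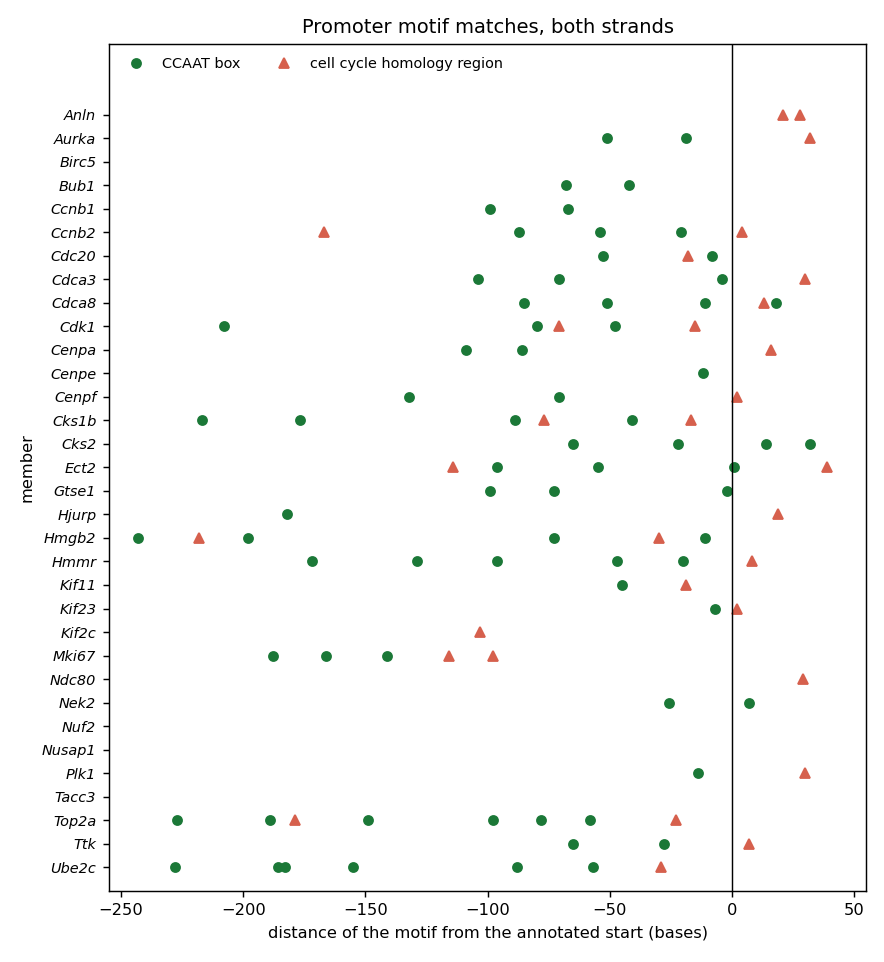
Positions of TTTGAA (cell cycle homology region, triangles) and CCAAT (dots) matches on either strand in the RefSeq windows of the 33 matched genes, in bases from the annotated start, with 1 row per gene. TTTGAA matches gather around the start and CCAAT matches upstream of it.

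The genes lie on 16 chromosomes, and 29 of the 38 share no exon sequence with another gene of GENCODE M21 (GRCm38). Cdk1 is at chr10:69335146-69352938 (minus strand), Ccnb1 at chr13:100778650-100786570 (minus), Kif23 at chr9:61915905-61946774 (minus), Cks1b at chr3:89415472-89418383 (minus), Smc4 at chr3:69004738-69034623 (plus) and Hmgb2 at chr8:57511907-57515999 (plus). Cks1b has a near copy, Cks1brt, which held 13 UMIs over all libraries against 22468 for Cks1b.

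The libraries differed in depth and in purity, and both bear on what follows. Of 42012 barcodes, 32698 passed the filters on quality and 30599 of those held no UMI of the leukocyte gene Ptprc and were used. Their summed UMIs ran from 7981577 to 69880989 per library, and their median UMI count per cell from 3251 to 6577 in 8 libraries but was 15685 and 13199 in the 2 weeks RFP replicates. Sftpc, the label's defining AT2 transcript, was found in 90.1 to 99.8% of the cells that were not mitosis-high, as defined later, except in 4 days RFP replicate 2 (66.6%) and 2 weeks RFP replicate 2 (83.2%). Summed immune markers stood at 87.5 to 204 CPM (counts scaled to a common library size) in 8 libraries and at 723 in 4 days RFP replicate 2 and 1098 in 2 weeks YFP replicate 2. Summed endothelial markers ran from 98.9 to 464 CPM, mesenchymal markers from 0.12 to 53.1 CPM and airway secretory markers, mostly Scgb1a1, from 343 to 17298 CPM. No preparation or sequencing batch is assigned to a library in the labels, and any 2 libraries shared between 0 and 12 barcodes. The methods state that libraries were made over 2 days, without saying which on which day. The cells left out for a Ptprc UMI were unevenly spread. They made up 34.8% of the cells passing the quality filters in 2 weeks YFP replicate 2, 19.8% in 2 weeks RFP replicate 2 and 0.964 to 9.04% elsewhere.

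In the summed cells of each library the 38 genes together reached 764 CPM in Confetti RFP and 736 in Confetti YFP, with library sizes scaled by TMM. The 4 days RFP replicates stood at 1235 and 1338 CPM and the 4 days YFP replicates at 567 and 1511. At 2 weeks the RFP replicates stood at 2030 and 941 CPM and the YFP replicates at 912 and 560. Both RFP groups lay above both Confetti libraries, while 4 days YFP replicate 2 lay above every library but 2 weeks RFP replicate 1. This order changed when cells holding 2 or more UMIs of another lineage were left out. The sum in 2 weeks RFP replicate 2 was then 513 CPM, below Confetti RFP (615) and Confetti YFP (646). The highest library was then 4 days YFP replicate 2 at 1145 CPM, above 2 weeks RFP replicate 1 at 1035. The summed level over the Red2Kras libraries was higher in RFP than in YFP by 0.71 on the log2 scale, about the size of the spread within groups (pooled SD 0.68). In a library sum, fewer cells of a type and less RNA per cell cannot be told apart, and the counts per cell are given further on. Hmgb2, which is also expressed outside division, made up 19.6 to 40.3% of the summed CPM of the set. Without Hmgb2, Cks1b and Smc4 the sum ran from 283 CPM in 4 days YFP replicate 1 to 1361 in 2 weeks RFP replicate 1. The highest library stayed the same, whereas the lowest was no longer 2 weeks YFP replicate 2.

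Most single members had the same highest library as the sum, although not all followed it elsewhere. In 2 weeks RFP, Smc4 (55.5 and 55.1 CPM) and Kif23 (29.4 and 25.3 CPM) lacked the wide gap between replicates seen in the sum. The highest library was 2 weeks RFP replicate 1 for 36 of 38 genes and 4 days YFP replicate 2 for the other 2. The lowest was 4 days YFP replicate 1 for 20 genes, 2 weeks YFP replicate 2 for 16 and Confetti RFP for 2. The highest level exceeded the lowest by a median of 5.42-fold (range 2.19 to 9.12). The libraries share depth and purity across genes, so this common order is a description of the libraries.

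**Figure D2:**
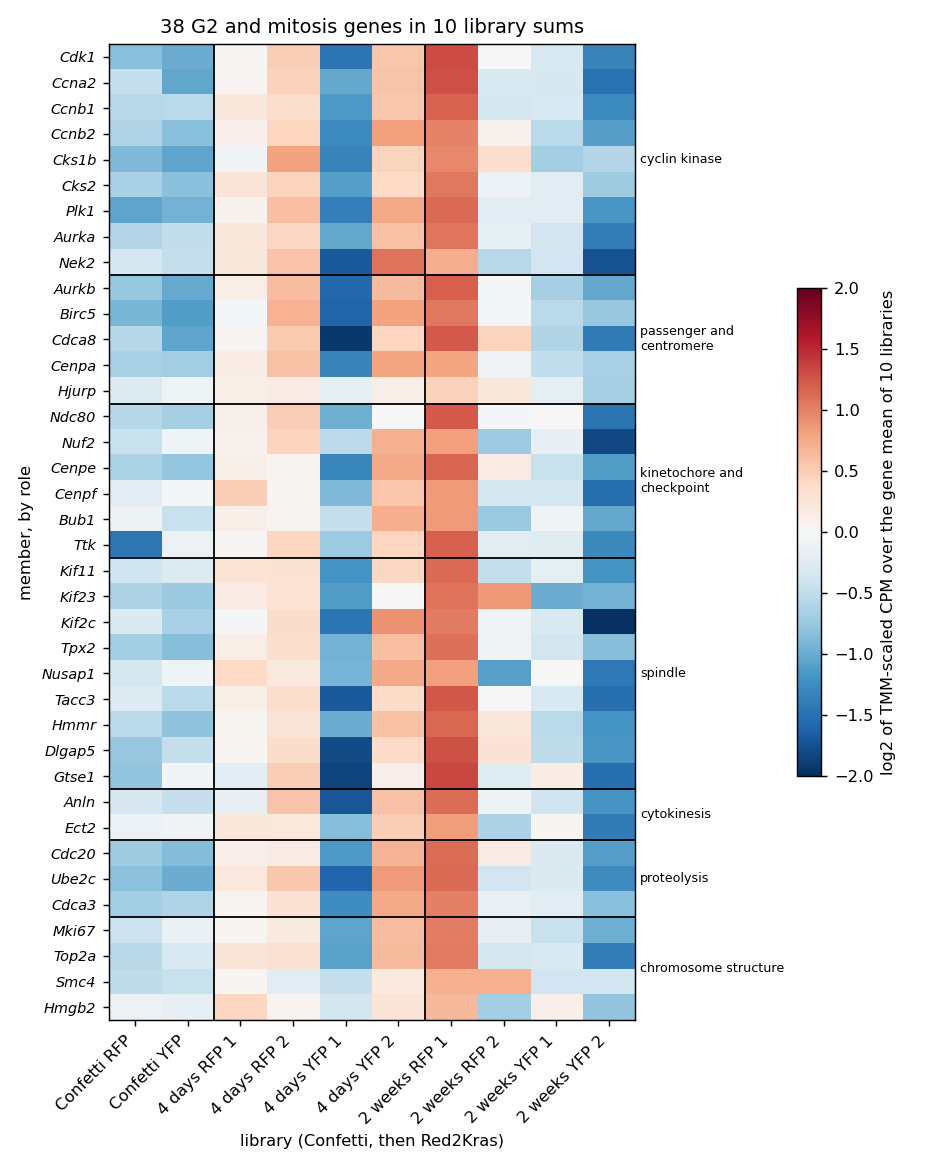
Heat map of log2 of each gene's CPM over its mean across the 10 libraries, with genes grouped by role in rows and libraries in columns. 2 weeks RFP replicate 1 holds the highest value of 36 genes, and of the 4 days YFP replicates the first is low and the second high.

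Among the regulators of mitotic entry (9 genes), Cdk1, the kinase that drives entry, stood at 22.4 and 20.1 CPM in Confetti RFP and YFP, at 40.7 and 56.4 in the 4 days RFP replicates, 14.5 and 58.3 in 4 days YFP, 98.7 and 40.0 in 2 weeks RFP and 32.3 and 15.8 in 2 weeks YFP. Its activating partner Ccnb1 (cyclin B1) stood at 8.06 and 8.17 CPM in Confetti, 13.8 and 15.1 at 4 days for the RFP libraries (5.34 and 17.2 for YFP), and 26.9 and 9.38 at 2 weeks (9.55 and 4.89 for YFP). For Cdk1 the 2 weeks RFP replicates lay above both YFP replicates, whereas for Ccnb1 the lower RFP replicate was just under the higher YFP replicate. Cks1b and Cks2 encode small subunits that bind cyclin-dependent kinases. Cks1b stood at 42.0 and 37.3 CPM in Confetti, 74.9 and 136 at 4 days for the RFP libraries (30.8 and 106 for YFP), and 151 and 98.6 at 2 weeks (48.5 and 51.9 for YFP). Cks2 stood at 54.1 and 47.4 CPM in Confetti, 101.1 and 115 at 4 days for the RFP libraries (39.7 and 111 for YFP), and 176 and 77.7 at 2 weeks (72.2 and 51.9 for YFP). Both lay above Confetti in all 4 RFP libraries, and at 2 weeks both RFP replicates exceeded both YFP replicates.

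The chromosomal passenger and centromere group held 5 genes. Birc5 (survivin), a passenger subunit needed for chromosome alignment and cytokinesis, stood at 27.5 and 23.9 CPM in Confetti, 50.6 and 83.8 at 4 days for the RFP libraries (17.0 and 90.8 for YFP), and 107 and 50.9 at 2 weeks (35.7 and 30.7 for YFP). Cenpa, the histone H3 variant of centromeres, stood at 19.9 and 19.3 CPM in Confetti, 34.6 and 46.5 at 4 days for the RFP libraries (12.3 and 53.6 for YFP), and 53.5 and 29.7 at 2 weeks (22.0 and 19.9 for YFP). The YFP replicates at 4 days differed from each other more than the RFP and YFP means did.

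Of the kinetochore and checkpoint genes (6 genes), Cenpf, a large kinetochore protein, stood at 20.4 and 23.2 CPM in Confetti, 33.5 and 24.2 at 4 days for the RFP libraries (12.9 and 35.1 for YFP), and 43.0 and 18.7 at 2 weeks (18.7 and 8.35 for YFP). Bub1, a checkpoint kinase, stood at 10.6 and 8.35 CPM in Confetti, 12.3 and 11.8 at 4 days for the RFP libraries (8.13 and 18.8 for YFP), and 20.6 and 6.79 at 2 weeks (10.8 and 5.61 for YFP). For Bub1 the lower 2 weeks RFP replicate was under both Confetti libraries.

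The spindle genes (9 genes) held the member with the clearest separation of colours. Kif23 encodes a kinesin of the centralspindlin complex, which bundles the midzone microtubules before the daughter cells part. It stood at 9.07 and 8.29 CPM in Confetti, 15.5 and 16.8 at 4 days for the RFP libraries (6.44 and 13.9 for YFP), and 29.4 and 25.3 at 2 weeks (6.99 and 7.19 for YFP). All 4 RFP libraries were above all 4 YFP libraries and above Confetti, and the 2 weeks replicates of each colour were close together. Nusap1, a microtubule-binding protein of the spindle, stood at 14.3 and 17.1 CPM in Confetti, 24.02 and 20.8 at 4 days for the RFP libraries (9.57 and 30.9 for YFP), and 32.2 and 8.56 at 2 weeks (18.3 and 6.76 for YFP), with the groups overlapping at both times.

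Cytokinesis was represented by 2 genes. Anln (anillin), a scaffold of the contractile ring, stood at 5.93 and 5.42 CPM in Confetti, 6.65 and 11.2 at 4 days for the RFP libraries (2.29 and 11.2 for YFP), and 16.1 and 6.99 at 2 weeks (5.67 and 3.31 for YFP). Ect2, an activator of RhoA at the cleavage furrow, stood at 10.8 and 11.2 CPM in Confetti, 13.8 and 13.7 at 4 days for the RFP libraries (6.52 and 16.5 for YFP), and 20.9 and 7.62 at 2 weeks (12.0 and 4.46 for YFP). At 2 weeks Anln separated the colours and Ect2 did not.

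The proteolysis genes (3 genes) included an activator and an enzyme of the anaphase-promoting complex. Cdc20, the activator, stood at 26.6 and 23.8 CPM in Confetti, 46.4 and 48.8 at 4 days for the RFP libraries (19.6 and 69.2 for YFP), and 94.5 and 48.8 at 2 weeks (35.5 and 20.3 for YFP). Ube2c, its ubiquitin-conjugating enzyme, stood at 48.8 and 43.2 CPM in Confetti, 99.6 and 126 at 4 days for the RFP libraries (28.6 and 156 for YFP), and 189 and 66.1 at 2 weeks (70.5 and 36.0 for YFP). Both were above Confetti in every RFP library, and for Ube2c the 2 weeks colours overlapped.

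Of the chromosome structure genes (4 genes), Mki67 (the Ki-67 antigen, which coats mitotic chromosomes) stood at 15.3 and 18.7 CPM in Confetti, 21.0 and 23.3 at 4 days for the RFP libraries (9.91 and 31.6 for YFP), and 41.7 and 18.5 at 2 weeks (15.2 and 10.5 for YFP). Top2a, the topoisomerase that untangles sister chromatids, stood at 22.9 and 27.2 CPM in Confetti, 40.1 and 41.4 at 4 days for the RFP libraries (16.0 and 52.3 for YFP), and 68.7 and 26.7 at 2 weeks (27.3 and 12.8 for YFP). In both genes 2 weeks RFP replicate 2 lay within the range of Confetti. Smc4, a core subunit of condensin, stood at 23.7 and 24.9 CPM in Confetti, 34.6 and 29.2 at 4 days for the RFP libraries (24.3 and 38.7 for YFP), and 55.5 and 55.1 at 2 weeks (25.9 and 25.9 for YFP). Hmgb2, a DNA-bending chromatin protein, stood at 271 and 264 CPM in Confetti, 397 and 306 at 4 days for the RFP libraries (229 and 355 for YFP), and 462 and 184 at 2 weeks (318 and 171 for YFP). The replicates of 2 weeks RFP were nearly equal for Smc4 and lay on either side of all other libraries but 2 weeks YFP replicate 2 for Hmgb2.

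The first comparison asked whether RFP+ mutant and YFP+ wildtype cells of Red2Kras mice differ at 2 weeks. All 38 genes had a higher mean in RFP, with a median log2 fold change of 1.24 (range 0.40 to 1.95) against a median near 0 for all genes. Without cells holding 2 or more UMIs of another lineage the median was 0.72, with 36 genes higher and 2 lower. With Ptprc-positive cells included it was 0.85, with all 38 higher. In the same comparison the markers of other cells had lower medians in RFP, at -3.31 for immune, -1.17 for ciliated and -1.01 for endothelial genes, as did AT2 markers at -0.73, and their part in the result was not tested. By role the medians were 1.31 for regulators of entry, 1.25 for passenger and centromere genes, 1.20 for kinetochore and checkpoint genes, 1.45 for spindle genes, 1.05 for cytokinesis, 1.26 for proteolysis and 1.16 for chromosome structure. None of the 38 passed edgeR's quasi-likelihood test with Benjamini-Hochberg adjustment over 14855 genes, and none of the genes tested did (0%). At an unadjusted p under 0.05 there were 5 members, against 12.7% of all genes, and DESeq2 called 2 members, Kif23 and Smc4, against 1.62% of its genes. The unadjusted count moved with single libraries, to 22 without 4 days YFP replicate 1 (12.4% of all genes), 20 without 4 days YFP replicate 2 (12.3%), 18 without 2 weeks RFP replicate 2 (4.48%) and 2 without 2 weeks RFP replicate 1 (11.4%) or without 2 weeks YFP replicate 2 (8.11%). It also moved with the fit, to 18 with only the groups compared (16.1% of all genes), 18 with DESeq2 (10.4%) and 17 without the filter on low counts (10.8%). With Ptprc-positive cells included it was 2 (7.89%). Both RFP libraries lay above both YFP libraries for 26 of 38 members and for 27.1% of all genes. The smallest p was that of Kif23, with 27.4 ± 2.89 CPM in RFP and 7.09 ± 0.14 in YFP (SD, n = 2 each), a log2 fold change of 1.95 ± 0.37 (SE) and an edgeR adjusted p of 0.315. Smc4 followed with 1.09 ± 0.27 (edgeR adjusted p = 0.317). Cdca8, a passenger subunit, had 1.82 ± 0.70 and Cdk1 1.52 ± 0.71, with edgeR adjusted p-values of 0.373 and 0.420. With 2 libraries a group, p-values measure the spread between libraries of pooled lungs. Leaving out 2 weeks RFP replicate 1 took the median of the members to 0.54, and leaving out 2 weeks YFP replicate 1 took it to 1.80.

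At 4 days the same comparison gave a median log2 fold change of 0.27 (range -0.16 to 0.71), with 37 genes higher in RFP and Bub1 lower. Without cells holding 2 or more UMIs of another lineage it was 0.15, with 30 genes higher and 8 lower. No member and no gene (0%) passed the edgeR test, and no member had an unadjusted p under 0.05, against 3.44% of all genes. Without 4 days YFP replicate 2 there were 16 such members (2.64% of all genes). RFP lay above YFP in all libraries for 2 members, Kif23 and Ndc80, and for 12.6% of all genes. The median was 1.40 without 4 days YFP replicate 2 and -0.29 without 4 days YFP replicate 1, so that its direction rested on those libraries. They also differed in other cells, with summed endothelial markers at 464 CPM in replicate 1 and 151 in replicate 2 and mesenchymal markers at 53.1 and 0.12 CPM, and the part of these cells was not tested. Over both time points, with time as a covariate, the median was 0.74 (range 0.25 to 1.28) and all 38 were higher in RFP. It was 0.43, with 36 higher and 2 lower, without cells holding 2 or more UMIs of another lineage. With Ptprc-positive cells included it was 0.56, with all 38 higher. Without 2 weeks RFP replicate 1 it was 0.39, with 36 higher and 2 lower, and without 4 days YFP replicate 2 it was 1.33. Again no member and no gene (0% of 13498) passed edgeR's test. There were 3 members with an unadjusted p under 0.05, against 16.2% of all genes, and 11 with DESeq2 (13.1%). After adjustment DESeq2 called 1 member, Kif23, against 3.64% of its genes. Without 4 days YFP replicate 2 there were 32 members with an unadjusted p under 0.05 (14.9% of all genes), and without 4 days YFP replicate 1, 2 weeks RFP replicate 1 or either 2 weeks YFP replicate there was 1. Kif23 had a log2 fold change of 1.28 ± 0.33 (SE) and an edgeR adjusted p of 0.180. The change of the RFP to YFP contrast between 4 days and 2 weeks, tested as an interaction, had a median of 0.97 over the members, and no member and no gene (0%) passed. At an unadjusted p under 0.05 there were 2 members, Smc4 (1.08 ± 0.38) and Kif23 (1.29 ± 0.50), against 1.81% of all genes, and without 4 days YFP replicate 1 there were 12 (1.83%), and without 4 days RFP replicate 2, 4 days YFP replicate 2 or any 2 weeks library there were 0. The median of the interaction was -0.20 without 4 days YFP replicate 2, 1.59 without 4 days YFP replicate 1 and 0.23 without 2 weeks RFP replicate 1. It was 0.56 without cells holding 2 or more UMIs of another lineage and 0.54 with Ptprc-positive cells included.

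Mutant cells were next compared with the Confetti libraries, which stand in for wildtype cells in lungs without mutant neighbours. These comparisons share the Confetti libraries, which may come from 1 pool of lungs. For 2 weeks RFP the median log2 fold change was 1.19 (range 0.27 to 1.71) and all 38 genes were higher. No member passed edgeR's test, which called 3 genes (0.0202%). At an unadjusted p under 0.05 there were 9 members against 24.8% of all genes, and DESeq2 called 3 members, Kif23, Smc4 and Cks1b, against 9% of its genes. Leaving out 1 library at a time moved the unadjusted count between 2, without either Confetti library or 2 weeks RFP replicate 1, and 19, without 4 days YFP replicate 1 (18 without replicate 2 of that group and 16 without 2 weeks RFP replicate 2), and it was 22 in a fit of only these groups (29.6% of all genes), 16 with DESeq2 (19.5%) and 15 without the filter on low counts (20.5%). In this comparison the endothelial, airway secretory and ciliated markers had medians of -2.45, -2.77 and -1.65, and their part was not tested. Both libraries lay above both Confetti libraries for 26 members and for 36.3% of all genes. Kif23 had 1.66 ± 0.36 (SE, edgeR adjusted p = 0.0914), Smc4 1.19 ± 0.27 (0.0936) and Cks1b 1.66 ± 0.58 (0.144). When only these groups were fitted, edgeR called 4 members, namely Kif23, Cks1b, Cdca8 and Smc4, and 7.93% of all genes. Without 2 weeks RFP replicate 1 the median was 0.53, with 30 genes higher and 8 lower. It was also 0.53, with 30 higher and 8 lower, without cells holding 2 or more UMIs of another lineage, where edgeR called 1 member, Kif23, and 10.1% of all genes. Without cells holding 4 or more markers of another lineage it called Kif23 and 3.98% of all genes.

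For 4 days RFP the median was 0.83 (range 0.32 to 1.41) and all 38 genes were higher than in Confetti. No member and no gene (0%) passed edgeR's test, and 2 members, Kif23 and Cks1b, had an unadjusted p under 0.05 against 5.86% of all genes. That count lay between 0 and 9 when single libraries were left out, and was highest without either 4 days YFP library. It was 14 with only the groups compared (3.46% of all genes) and 4 with DESeq2 (5.87%). Markers of other cells moved in the same comparison, with medians of 2.71 for immune genes (9 of 11 higher), -3.44 for airway secretory and -1.12 for endothelial genes. Summed immune markers stood at 92.3 CPM in 4 days RFP replicate 1, beside 91.3 and 92.8 in Confetti, and at 723 in replicate 2, and their part was not tested. Both 4 days RFP libraries lay above both Confetti libraries for 37 of 38 members, all but Gtse1, whereas this was so for 22.6% of all genes. Cks1b had a log2 fold change of 1.41 ± 0.57 and Kif23 of 0.90 ± 0.36 (edgeR adjusted p = 0.794 for each).

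Wildtype YFP+ cells of Red2Kras lungs were compared with Confetti in the same way. At 2 weeks the median log2 fold change was -0.12 (range -0.66 to 0.41), with 15 genes higher and 23 lower. The direction rested on single libraries, since the median was 0.20 (33 higher, 5 lower) without 2 weeks YFP replicate 2 and -0.58 (4 higher, 34 lower) without replicate 1. It was 0.36 with Ptprc-positive cells included. In the same comparison 11 of 11 immune markers were higher (median 4.04), 8 of 8 endothelial markers lower (-1.48) and 6 of 6 genes of primed AT2 cells higher (1.78), with none passing edgeR's adjusted test, and their part was not tested. No member passed edgeR's test, which called 1 gene (0.00673%). A total of 3 members lay above both Confetti libraries against 24.4% of all genes. At 4 days the median was 0.53 (range -0.12 to 1.08) with 37 genes higher, no member and no gene (0%) passed, and 0 members lay above Confetti in both libraries against 15% of all genes. In that comparison 8 of 8 mesenchymal markers (0.72), 7 of 8 endothelial markers (0.44) and 6 of 6 primed AT2 genes (1.33) were higher. Of the airway secretory markers 5 of 6 were lower (-0.65). The replicates differed, with the mesenchymal gene Col3a1 at 14.9 CPM in replicate 1 and 0 in replicate 2. The primed AT2 gene Retnla stood at 73.6 and 1476 CPM, beside 109.9 and 124 in Confetti. Without 4 days YFP replicate 2 the median of the members was -0.59, and without replicate 1 it was 1.13. Between 2 weeks and 4 days the members' median was 0.33 in RFP and -0.64 in YFP, and no member and no gene (0%) passed edgeR's test in either colour. The unadjusted p was under 0.05 for 1 member, Smc4, in RFP (8.72% of all genes) and for 0 members in YFP (1.25% of all genes). It was under 0.05 for 0 members in either comparison of YFP with Confetti (4.19% of all genes at 2 weeks and 1.26% at 4 days). Without 4 days YFP replicate 1 there were 14 such members for 4 days YFP against Confetti (5.70% of all genes) and 14 for YFP over time (1.01%). DESeq2 called 0 members in every comparison for which no DESeq2 count is given here. Without 2 weeks RFP replicate 1 the median of RFP over time was -0.39, and without replicate 2 it was 0.74. It was also below 0 without cells holding 2 or more UMIs of another lineage, at -0.16 with 10 genes higher and 28 lower. Without 4 days YFP replicate 2 the median of YFP over time was 0.51, with 36 genes higher, and without replicate 1 of that group it was -1.28. With Ptprc-positive cells included it was -0.21, with 9 genes higher and 29 lower.

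To separate the number of dividing cells from the amount of RNA in each, every cell was thinned to 2000 UMIs and the members with at least 1 UMI were counted. A total of 30470 cells were deep enough and 129 were not. Cells with at least 5 of the 38 genes are called mitosis-high here, a range of a count and not a cell type. There were 1694 such cells. Of all cells 213 stood at 4 members and 159 at 5, and 1054 had at least 10. Of the mitosis-high cells 88.5% and 89.3% had at least 10 members in the Confetti libraries, but 52.7% and 50.7% in 2 weeks RFP and 44.3% in 4 days RFP replicate 2, so that more cells lay near the limit there. The share was also lower than in Confetti in 2 weeks YFP (63.8% and 61.3%) and 4 days YFP replicate 2 (67.3%). It was 82.6% in 4 days RFP replicate 1 and 88% in 4 days YFP replicate 1.

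Mitosis-high cells made up 2.23% of cells in Confetti RFP (87 of 3897) and 2.28% in Confetti YFP (93 of 4077). At 4 days they made up 4.09% and 8.88% in the RFP replicates and 1.38% and 7.37% in the YFP replicates. At 2 weeks they made up 14.8% (605 of 4086) and 5.31% (150 of 2823) in RFP and 4.39% (188 of 4285) and 2.73% (31 of 1137) in YFP. Exact 95% binomial intervals, which cover counting error only, ran from 13.7 to 15.9% in 2 weeks RFP replicate 1 and from 1.79 to 2.75% in Confetti RFP. All 4 RFP libraries lay above both Confetti libraries, and the 2 weeks RFP replicates lay above the 2 weeks YFP replicates. The latter order turned for 2 weeks RFP replicate 2 and YFP replicate 1 when cells were thinned to 1000 UMIs (3.15% against 3.16%) or when 10 members were required (2.69% against 2.80%). Over the Red2Kras libraries the mean share was 8.27% for RFP against 3.97% for YFP. The difference of 4.31 percentage points was no larger than the spread between libraries of a group (pooled SD 4.36). Without 2 weeks RFP replicate 1 the difference was 2.13 points. Set beside the YFP library of the same time and replicate number, the RFP library had the higher share in 4 of 4 cases, by 1.51 to 10.4 points, although the labels do not say that a number marks shared lungs. Requiring at least 8 members gave 10.0% and 3.47% in 2 weeks RFP, 3.27% and 2.38% in 2 weeks YFP and 2.10% and 2.16% in Confetti. Without thinning the shares were 40.5% and 23.1% in the 2 weeks RFP libraries, whose cells were the deepest, and 2.41 to 12.9% elsewhere. When cells with at least 2 UMIs of markers of another lineage were left out, the 2 weeks RFP replicates stood at 7.91% and 2.51% and the 2 weeks YFP replicates at 3.70% and 0.867%, and 4 days RFP replicate 2 at 5.09% lay below 4 days YFP replicate 2 at 5.61%. The order of RFP over YFP was then lost at 2 weeks and held in 3 of 4 same-numbered cases. That step also removes deep cells preferentially, and the part of each was not tested.

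**Figure D3:**
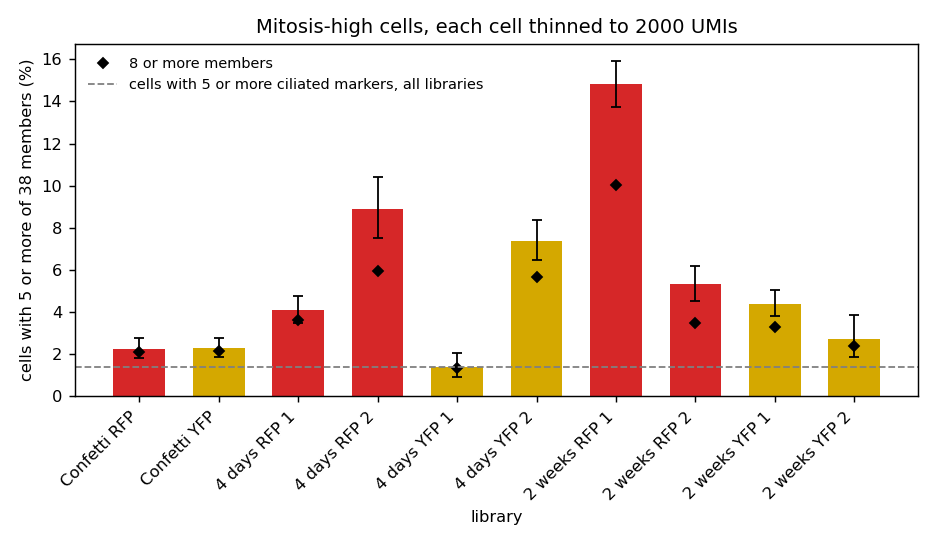
Percent of cells with at least 5 of the 38 genes after thinning to 2000 UMIs, for each library, with exact 95% binomial intervals as error bars, diamonds for at least 8 genes and a dashed line for ciliated cells. 2 weeks RFP replicate 1 stands at 14.8%, and its partner at 5.31%, between the 4 days RFP replicates.

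Ciliated cells, which have left the cell cycle, served as a reference for the share that arises without division, from free RNA or from doublets, which cannot be told apart here. Among 213 cells with at least 5 of 10 markers of ciliated cells, 3 were mitosis-high (1.41%, exact 95% interval 0.291 to 4.06%), at a median of 5126 UMIs against 5535 in all cells. The shares of both Confetti libraries, 4 days YFP replicate 1 and 2 weeks YFP replicate 2 lay within that interval, and those of the other 6 libraries lay above it, although the interval is over cells pooled from all libraries. Of these 6, 4 days RFP replicate 1 (3.48 to 4.77%) and 2 weeks YFP replicate 1 (3.79 to 5.04%) had intervals that overlapped it. The 3 ciliated cells held 7, 6 and 7 members at 9319, 9695 and 22982 UMIs. By library, the median mitosis-high cell held from 9 members in 4 days RFP replicate 2 to 15 in Confetti RFP. The median was 10 in both 2 weeks RFP libraries, where the lower quartile was 7.

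Members differed in how narrowly they marked these cells. For each gene, cells with at least 5 of the other 37 genes were set against the remaining cells, with every library given equal weight. Ube2c was found in 68.3% of the former and 0.678% of the latter, Birc5 in 68.0% and 0.816%, Cdk1 in 56.8% and 0.982%, Top2a in 51.8% and 0.757% and Ccnb1 in 23.1% and 0.0964%. The genes choose each other's cells, so these values are a description with no test. Hmgb2 was found in 94.9% and 25.7%, Cks2 in 69.7% and 7.28% and Cks1b in 66.0% and 6.26%. These 3 were among the 5 most widely found members in the former cells and were the most common in the latter. At the other end Gtse1 was found in 2.05% and 0.0802%. A median of 84.6% of a member's thinned UMIs lay in mitosis-high cells (range 33.1% for Smc4 to 95.4% for Kif2c). The share was over 75% for 26 members and under 50% for 6, namely Hmgb2, Cks2, Cks1b, Smc4, Hjurp and Bub1. Hmgb2 was also found in 26.3% of ciliated cells.

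**Figure D4:**
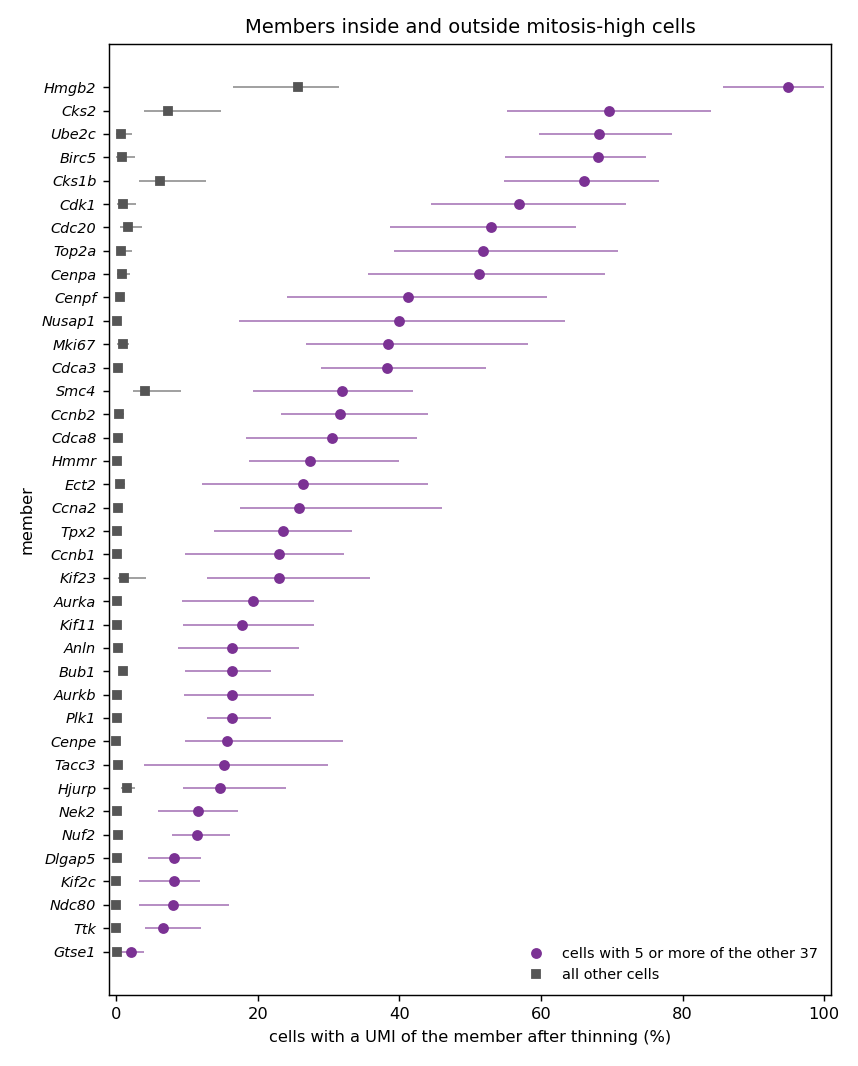
Percent of cells with at least 1 UMI of each gene, among cells with at least 5 of the other 37 genes and among all remaining cells, as the mean over libraries with lines for the range over libraries. Hmgb2, Cks2 and Cks1b have the highest shares among the remaining cells.

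Outside mitosis-high cells the 3 members with the smallest p for 2 weeks RFP against Confetti were read again, with the cells at an equal number of UMIs. Kif23 was found in 2.41% and 4.19% of these remaining cells in 2 weeks RFP and in 0.263 to 0.990% in the other 8 libraries. Smc4 was found in 6.06% and 9.24% against 2.44 to 3.86%, and Cks1b in 12.7% and 10.1% against 3.30 to 8.85%. These genes were picked for 2 weeks RFP, and the share of all genes with such a separation in these cells was not computed. Hmgb2 was found in 27.9% and 16.5% of the remaining cells in 2 weeks RFP and in 17.7 to 31.5% elsewhere. Several members not picked this way also lay highest in both 2 weeks RFP libraries. Birc5 was found in 2.65% and 1.49% against 0 to 1.39%, and Ube2c in 2.26% and 1.42% against 0 to 1.18%. Cdk1 was not among them (2.825% and 1.83% against 0.181 to 2.36%). The remaining cells include those with 4 members, which numbered 96 and 25 in 2 weeks RFP and 7 and 4 in Confetti. Their part was not tested.

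Members could also be ordered by how many S-phase genes were found in the same cells. Mitosis-high cells held a mean of 3.58 to 4.64 of 36 S-phase genes per thinned cell, by library, against 0.433 to 1.11 in the rest. Among cells with at least 5 of the other 37 members, those with a UMI of Cenpa held 2.72 ± 1.16 fewer S-phase genes than those without it (mean and SD over 10 libraries), and the difference was negative in all 10. The difference was -2.27 ± 1.33 for Ube2c (lower in 9 of 9 libraries), -1.78 ± 0.37 for Ccnb2 (10 of 10), -1.66 ± 0.98 for Cdc20 (9 of 10) and -1.55 ± 0.53 for Ccnb1 (8 of 8). At the other end it was 0.89 ± 0.87 for Top2a (higher in 9 of 10 libraries) and 0.72 ± 0.19 for Bub1 (8 of 8). Cells with Top2a or Bub1 thus held more S-phase genes, and cells with B-type cyclins or genes of the anaphase-promoting complex held fewer. Of the 35 members with at least 5 usable libraries, 11 were lower in every library used and 1, Bub1, was higher in every one. Mki67 (0.30 ± 0.48), Cdk1 (0.32 ± 0.67) and Birc5 (0.39 ± 0.81) did not stand apart from 0 beyond their spread.

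**Figure D5:**
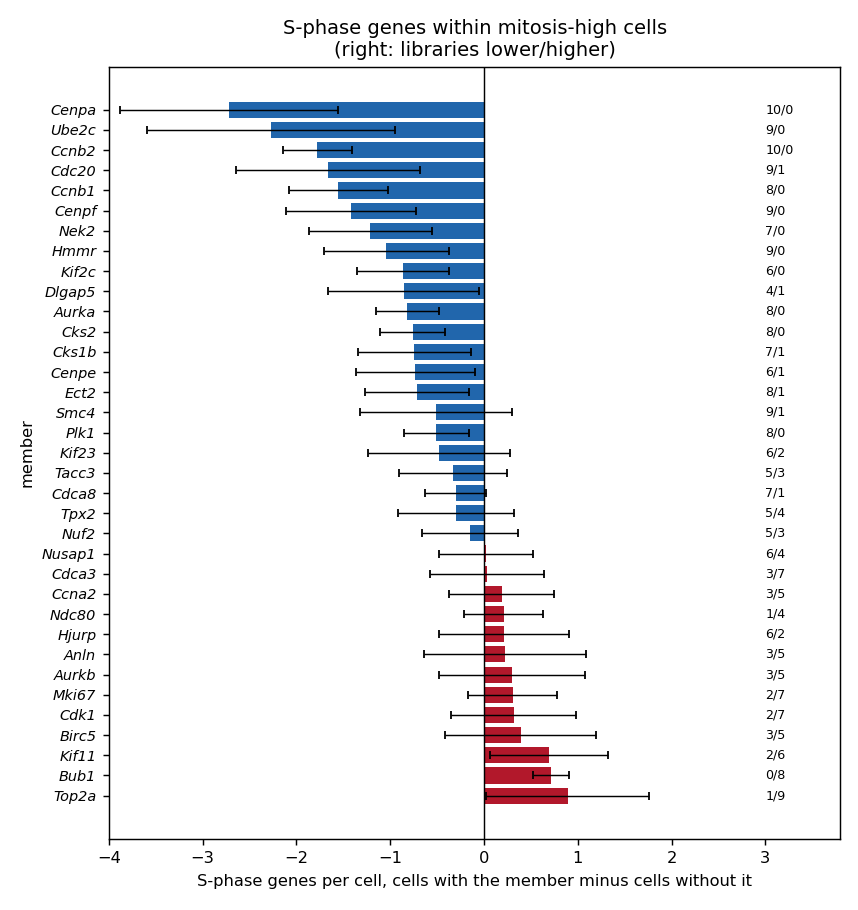
Difference in the number of S-phase genes per cell between mitotic cells with and without each member, as the mean over libraries with SD as error bars, for the 35 members with at least 5 libraries of 10 or more cells on each side. Cenpa stands lowest at -2.72 and Top2a highest at 0.89.

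Mitosis-high cells also carried markers of the alveolar states of the study to different degrees. Itga2, a collagen-binding integrin subunit, was found in at least 244 cells in each of 3 RFP libraries and in 2 to 22 cells in each of the others. In 2 weeks RFP replicate 1, 5.20% of 500 Itga2+ cells were mitosis-high (exact 95% interval 3.43 to 7.53%) against 16.2% of the other cells (14.96 to 17.4%). In replicate 2 it was 2.01% of 447 cells (0.925 to 3.79%) against 5.93% (5.02 to 6.96%), and in 4 days RFP replicate 2 it was 0.820% of 244 cells (0.0994 to 2.93%) against 10.4% (8.78 to 12.1%). In these 3 libraries Itga2+ cells held fewer mitosis-high cells beyond counting error. In 4 days RFP replicate 1, where 22 cells had Itga2, 4 were mitosis-high (18.2%, 5.19 to 40.3%). Cd177, a surface glycoprotein, gave 11 of 100 cells against 14.9% of the others in 2 weeks RFP replicate 1, and 7.97% of 138 cells against 5.18% in replicate 2, with overlapping intervals. Cells with a UMI of the keratin Krt8 were mitosis-high in 15.3% against 14.0% of cases in 2 weeks RFP replicate 1 and in 6.08% against 3.43% in replicate 2. In Confetti RFP the values were 3.93% of Krt8+ cells and 1.28% of the others. The order was the other way in 4 days RFP replicate 2 (8.86% against 8.92%) and in 2 weeks YFP replicate 2 (2.63% against 2.78%), where Krt8+ cells were slightly lower. Such a difference was not particular to Krt8. Epcam, the gene of the sorting marker, was found in 83.9% of mitosis-high and 38.95% of remaining cells in Confetti RFP. In 2 weeks YFP replicate 2 it was found in 29.0% and 32.55%. Lcn2, a marker of primed AT2 cells, went in opposite directions in different libraries. In Confetti RFP 1.68% of Lcn2+ cells were mitosis-high (1.27 to 2.18%) against 5.44% of the others (3.73 to 7.63%), and in Confetti YFP 1.79% against 4.99%. In 2 weeks RFP the share was higher in Lcn2+ cells, at 16.3% against 8.54% in replicate 1 and 7.15% against 2.39% in replicate 2, as it was in 4 days RFP replicate 2 (12.1% against 4.11%). It was lower in Lcn2+ cells of 2 weeks YFP replicate 2 (1.97% against 6.90%), and in the other 4 libraries the intervals overlapped. For Ager, a marker of AT1 cells, the share was higher in Ager+ cells of Confetti RFP (2.63% against 1.09%), 4 days RFP replicate 2 (11.3% against 7.09%) and both 2 weeks RFP libraries (16.4% against 12.2% and 6.17% against 3.07%), with overlapping intervals in the other 6. Among the remaining cells of Confetti RFP, Lcn2 was found in 85.85%, Ager in 73.9% and Sftpc in 99.7%. A UMI of Lcn2 or Ager thus does not mark a primed AT2 or AT1 cell, and no background share is given for these markers.

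Mitosis-high cells were larger in RNA, with a median UMI count 1.27 to 1.94 times that of the remaining cells of their library. At least 3 immune markers were found in 12.9% of mitosis-high cells in 4 days RFP replicate 2 and in 38.7% in 2 weeks YFP replicate 2, and in 0 to 2.27% elsewhere. In those 2 libraries the remaining cells stood at 7.52% and 9.04%, and Sftpc was found in 85.0% and 64.5% of mitosis-high cells, against at least 96.7% elsewhere. Their part in the shares of these 2 libraries was not tested. Without cells that held at least 4 markers of another lineage the shares were 8.51% and 1.98%, and 14.9% in 2 weeks RFP replicate 1.

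Related gene lists were read beside the set. Of 73 other G2 and mitosis genes, led in UMIs by Arl6ip1, Ran and Ube2s, 68 were higher in RFP than in YFP at 2 weeks with a median log2 fold change of 0.90, and none passed edgeR's test (11 at an unadjusted p under 0.05, where 12.7% of all genes stood). Against Confetti 66 were higher in 2 weeks RFP, with a median of 0.94 and 14 at an unadjusted p under 0.05, where 24.8% of all genes stood. Of 36 S-phase genes, led by Slbp, Tyms and Pcna, 35 were higher in RFP than in YFP at 2 weeks (median 0.96, 6 at an unadjusted p under 0.05 beside the same 12.7%), and 35 were higher than in Confetti (median 1.58, 24 at an unadjusted p under 0.05 beside the same 24.8%, none adjusted). YFP+ cells had 32 of 36 S-phase genes above Confetti at 2 weeks, with a median of 0.59, although their sum, given next, was close to Confetti in replicate 2. The S-phase genes summed to 335 CPM in each Confetti library, 488 and 662 at 4 days for the RFP libraries (334 and 634 for YFP), and 919 and 510 at 2 weeks (518 and 336 for YFP). The higher replicate of each Red2Kras group was the same for the S-phase sum as for the sum of the 38 genes.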

How the data were processed

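The authors deposited matrices of raw UMI counts per gene and barcode, made with Cell Ranger (3.1.0 in the processing notes, 5.0.1 in the file headers) on GRCm38. The labels name v2 and the methods v3 chemistry. No doublet removal is stated for the deposited counts, and none was done here. Members and lists were chosen with earlier results of these data known.

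Barcodes with under 1000 genes, over 50000 UMIs or over 15% mitochondrial UMIs, and cells with a Ptprc UMI, were removed. Mitochondrial genes and genes seen in under 3 cells were dropped. Counts were summed per library and tested with edgeR 4.0.16 (R 4.3.3), TMM scaling, filterByExpr and the quasi-likelihood test over the 6 groups, with Benjamini-Hochberg adjustment over all genes at 0.05. Groups came from the labels. The test was checked on simulated data. DESeq2 1.42.0, other filters, a replicate block and leaving out each library were alternatives. Values per library are given for the 2 most abundant members of each role, and for Mki67, Top2a, Cdk1 and Ccnb1. From other lists the 3 genes with the most UMIs are named.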

Additional observations from a re-analysis of the deposited data

Results flagged for a closer look

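Cells with at least 1 Ptprc UMI were outside the comparisons. In 4 days RFP replicate 2 the mitosis-high share of these cells was 18.5% (29 of 157, exact 95% interval 12.7 to 25.4%). The Confetti libraries together stood at 5.79% (7 of 121, 2.36 to 11.6%), but apart at 1.52% (RFP) and 10.9% (YFP, 4.11 to 22.3%), and the latter interval overlaps that of 4 days RFP replicate 2. The other Red2Kras libraries stood between 1.15 and 17.8%. The intervals cover counting error only, and the difference between libraries was not tested. Since no group had 4 libraries, single libraries were not tested for standing apart from their group.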

How the results depend on the processing

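The count of members passing the test was 0 in all 10 comparisons, and 0 in 193 of 199 recomputed counts. The exceptions were DESeq2 with 2 members for RFP against YFP at 2 weeks, 1 over both time points and 3 for 2 weeks RFP against Confetti. In this last comparison edgeR called 4 members in a fit of only the groups compared, 1 without cells holding 2 or more UMIs of another lineage and 1 without cells holding 4 or more markers of another lineage, a step chosen after seeing the data. The same fits called 7.93%, 10.1% and 3.98% of all genes. Leaving out each replicate in turn gave 0 to 0 members in every comparison. Only the groups compared was not run for both time points, where all Red2Kras libraries enter already. Same-numbered RFP and YFP libraries had correlations of their deviations of 0.454 at 4 days and 0.567 at 2 weeks, and other same-numbered groups 0.0893 to 0.480. With 2 numbers a group and no label for shared lungs, the numbers were not taken as pairs, and with the replicate block 0 members were called in each comparison. The RFP minus YFP difference in mitosis-high share was 4.31 points, 14.6 without thinning, 2.71 when thinned to 1000 UMIs, 2.62 for at least 8 members, 1.81 without cells of other lineages, and 2.13 to 5.70 when each library was left out. The summed level difference was 0.71 and ranged from 0.51 to 1.01 on leaving out libraries.

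Fold changes of the named members were recomputed for RFP against YFP at 2 weeks and for 2 weeks RFP against Confetti. Of these 720 values 16 reversed, and the cause was not tested. Without cells of other lineages, RFP against YFP gave log2 fold changes of -0.20 for Bub1 and -0.20 for Hmgb2, and 2 weeks RFP against Confetti gave -0.28 for Cenpf, -0.49 for Bub1, -0.43 for Nusap1, -0.38 for Hmgb2 and -0.056 for Mki67. Leaving out libraries in turn, RFP against YFP ranged from -0.26 to 1.26 for Bub1, -0.55 to 1.56 for Nusap1, -0.11 to 1.66 for Ect2 and -0.38 to 0.90 for Hmgb2. 2 weeks RFP against Confetti ranged from -0.19 to 0.91 for Cenpf, -0.45 to 1.06 for Bub1, -0.85 to 0.97 for Nusap1, -0.51 to 0.85 for Ect2 and -0.51 to 0.72 for Hmgb2. Every lowest value was without 2 weeks RFP replicate 1.

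Depth limits the thinned shares, since a rare transcript in a cell of 2000 UMIs is often missed. Groups of 2 pooled libraries, with no batch given, limit the tests.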

Other observations

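Kif23 outside mitosis-high cells was looked at after its values were seen, and it had been picked for its level in 2 weeks RFP. In 2 weeks RFP replicate 1 it was found in 3.59% of Itga2+ cells (17 of 474, exact 95% interval 2.10 to 5.68%) and in 2.22% of cells without Itga2 (1.73 to 2.81%). In replicate 2 the values were 7.31% (5.05 to 10.2%) and 3.58% (2.84 to 4.43%). In 4 days RFP replicate 2 they were 1.65% (0.452 to 4.18%) and 0.670% (0.290 to 1.32%). The intervals overlapped in all but 2 weeks RFP replicate 2. In the other 8 libraries, cells without Itga2 stood between 0.263% and 0.940%. The difference was not particular to Itga2. In the 2 weeks RFP replicates Kif23 was found in 2.92% and 4.98% of Krt8+ cells, against 1.46% and 2.28% of the others. For Cd177 the values were 5.62% and 6.30% against 2.32% and 4.08%, with overlapping intervals. For Ager they went the other way, at 2.2% and 3.5% against 2.7% and 5.8%.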
